A study of Mus musculus with 8 samples.

Results

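The 39 genes described here are transcripts of dividing cells. They were chosen by name and not by a rule on their values, but with earlier results of these data known. Of them, 19 act mainly before or during DNA synthesis (the S phase members) and 20 act mainly in the phases around mitosis (the mitotic members). Each was matched by its symbol to 1 of the 19191 rows of the count table, and all 39 passed the filter on low counts that left 14274 genes to test. RNA-seq measured them in regulatory T (Treg) cells, the suppressive Foxp3-expressing CD4 T cells, sorted by flow cytometry from the large-intestine lamina propria of C57BL/6 mice. WT mice were Ahrf/+ Foxp3Yfp-Cre and KO mice were Ahrf/- Foxp3Yfp-Cre, with 2 libraries of each genotype, numbered replicate 1 and replicate 2. All 4 libraries therefore come from mice that carry a floxed allele of Ahr, the gene of the aryl hydrocarbon receptor, and a Cre recombinase driven by Foxp3. By these genotypes WT Treg cells keep 1 working copy of Ahr, KO Treg cells keep none, and the other cells of KO mice carry 1 null allele. The labels give neither ages nor whether each library came from a separate mouse. The p-values below therefore measure only the spread between these libraries, which may be technical. The 4 ATAC-seq samples of the series were not analysed here.

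A cell that leaves quiescence first induces genes whose promoters are bound by E2F factors, which are held inactive by the retinoblastoma protein until cyclin-dependent kinases phosphorylate it. These genes encode the machinery that loads the replicative helicase on DNA, opens origins, copies DNA and makes nucleotides. Later a separate set of genes, held down in resting cells by the DREAM complex through a promoter element called the CHR (cell cycle genes homology region) and induced in dividing cells by B-Myb and FoxM1 with the help of NF-Y at CCAAT boxes, supplies the kinases, motors and checkpoint proteins of mitosis. In intestinal tissue, part of the Treg pool divides under the influence of antigen, cytokines and the microbiota. Bulk RNA cannot tell a smaller share of dividing cells from less of a transcript per dividing cell.

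These promoter elements were looked for in the members as a description, with the words chosen after the expression values were seen. The elements did not enter the choice of members, but they are known from genes of these same phases. A difference between the S phase and the mitotic members is therefore no independent support for that split. RefSeq promoter windows (250 bases before to 50 after an annotated start, build GRCm38.p6, whereas the counts use mm9) were found for 33 of the 39 members, with 36 windows because Mcm7, Uhrf1 and E2f2 had 2 starts each. None was found for Aurkb, Ccna2, Ccne2, Gins2, Mcm4 and Tpx2. Both strands were searched. The words for E2F were TTGGCGC with its variants, which read TTCCCGC in the first variant, TTGCCGC in the next and TTCGCGC in the last. The words for the CHR were TTTGAA as well as the palindrome TTCGAA, and the CCAAT box was searched by its 5 letters. Matches may overlap each other, and a match is a description of the sequence, not a shown binding site. The sequences below are the 200 bases before the start on the strand of the gene, with matches to these 3 elements in capitals. The first 4 belong to mitotic members: Top2a (chr11:99024190-99024389, minus strand), Cdk1 (chr10:69352913-69353112, minus strand), Cdc20 (chr4:118437344-118437543, minus strand) and Kif11 (chr19:37376182-37376381, plus strand).
Top2a: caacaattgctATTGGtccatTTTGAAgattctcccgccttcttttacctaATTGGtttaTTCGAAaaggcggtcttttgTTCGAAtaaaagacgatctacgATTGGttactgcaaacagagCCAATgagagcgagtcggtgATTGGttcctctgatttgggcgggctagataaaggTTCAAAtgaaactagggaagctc
Cdk1: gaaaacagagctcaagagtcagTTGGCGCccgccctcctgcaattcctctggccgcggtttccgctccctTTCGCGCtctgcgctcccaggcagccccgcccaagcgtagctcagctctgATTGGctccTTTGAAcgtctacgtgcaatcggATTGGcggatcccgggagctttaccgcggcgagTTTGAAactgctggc
Cdc20: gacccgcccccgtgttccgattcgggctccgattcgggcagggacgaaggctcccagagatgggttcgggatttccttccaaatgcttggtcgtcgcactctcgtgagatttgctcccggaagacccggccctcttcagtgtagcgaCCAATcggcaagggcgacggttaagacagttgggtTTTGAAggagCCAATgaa
Kif11: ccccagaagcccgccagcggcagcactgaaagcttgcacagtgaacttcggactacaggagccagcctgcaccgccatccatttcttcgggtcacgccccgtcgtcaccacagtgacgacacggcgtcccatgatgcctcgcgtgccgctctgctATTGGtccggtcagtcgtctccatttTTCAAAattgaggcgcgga

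Each of these 4 mitotic promoters held a CHR word together with at least 1 CCAAT box. The next 3 sequences, from S phase members, each held an E2F word and a CCAAT box and no CHR word: Mcm5 (chr8:75109309-75109508, plus strand), Mcm6 (chr1:128359706-128359905, minus strand) and the first of the annotated starts of Uhrf1 (chr17:56303137-56303336, plus strand).
Mcm5: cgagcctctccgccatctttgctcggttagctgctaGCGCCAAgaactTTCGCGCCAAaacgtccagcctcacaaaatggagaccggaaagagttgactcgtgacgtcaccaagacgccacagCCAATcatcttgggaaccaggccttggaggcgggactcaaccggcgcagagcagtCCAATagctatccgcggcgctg
Mcm6: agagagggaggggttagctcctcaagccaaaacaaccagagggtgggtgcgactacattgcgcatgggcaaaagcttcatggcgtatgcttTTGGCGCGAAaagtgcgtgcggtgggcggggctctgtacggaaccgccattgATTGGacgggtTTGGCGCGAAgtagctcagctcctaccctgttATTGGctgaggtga
Uhrf1: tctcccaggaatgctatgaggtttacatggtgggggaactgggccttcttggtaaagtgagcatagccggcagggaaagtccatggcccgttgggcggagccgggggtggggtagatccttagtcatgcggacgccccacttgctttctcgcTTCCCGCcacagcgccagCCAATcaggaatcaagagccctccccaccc

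Over the full 300-base windows, 12 of 19 S phase windows (63.2%) and 3 of 17 mitotic windows (17.6%) held an E2F word, beside 15.7% of the windows of tested genes and 9.57% of all 32851 RefSeq windows. The order was the opposite for the CHR, which was present in 3 of 19 S phase windows (15.8%) and 14 of 17 mitotic windows (82.4%), beside 14.3% for tested genes and 19.2% for all windows. CCAAT boxes were frequent in both classes, in 13 of 19 (68.4%) and 16 of 17 windows (94.1%), against 37.4% of all windows. A CHR and a CCAAT box occurred together in 14 of 17 mitotic windows, and in 5.88% of those of tested genes. The mitotic members with an E2F word were Ccnb1, Cdk1 and Mki67, the S phase members with a CHR were E2f2, Mcm2 and Mcm7, and the mitotic members without a CHR were Birc5, Ccnb1 and Cenpe. None of the 3 elements was found in the windows of Birc5, Tyms, Tk1, Ccne1 and E2f1. The core of the response element bound by the Ahr dimer (TNGCGTG, both strands) occurred in 3 of 36 windows (8.33%), those of Mcm2, Cdt1 and Kif11, beside 7.51% of the windows of tested genes and 5.07% of all windows.

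**Figure D1:**
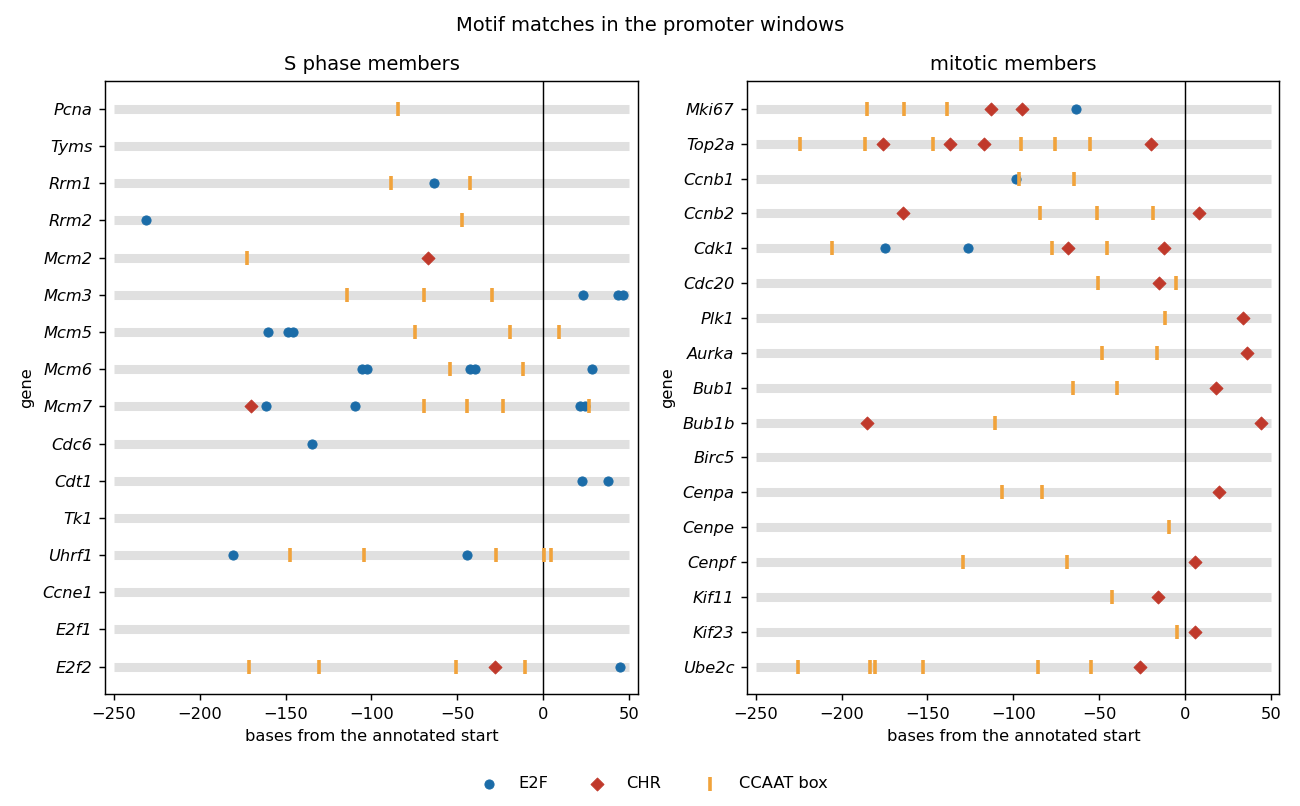
Matches to E2F words (circles), CHR words (diamonds) and CCAAT boxes (bars) in the promoter windows of 33 members, against the distance in bases from the annotated start, with S phase members on the left and mitotic members on the right. Both windows of Mcm7, Uhrf1 and E2f2 are drawn on 1 line, and the diamonds gather in the mitotic panel, where 14 of 17 windows hold a CHR against 3 of 19 for the S phase members.

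Total gene counts were 26862922 and 30993483 in replicate 1 of WT and KO, and 62402450 and 53438828 in replicate 2, so 3 counts correspond to 0.0471 to 0.112 CPM, the counts scaled to 1000000 of each library's normalized total. Ahr itself was at 581 and 539 CPM in the WT libraries and 536 and 518 CPM in the KO libraries, so the count of the whole gene does not check the deletion, whereas Ahrr, a feedback target of the receptor, was at 7.30 and 6.55 CPM in the WT libraries and 0.391 and 0.265 CPM in the KO libraries. The defining markers of the Treg label were present in every library: Foxp3 was at 250 to 280 CPM, Cd4 at 1043 to 1234, Il2ra at 255 to 341, Ctla4 at 3045 to 3773, Ikzf2 at 752 to 923 and Cd3e at 80.7 to 118 over the 4 libraries. Lars2, named after its values were seen, stood far apart between replicates, at 367 and 639 CPM in replicate 1 of WT and KO and 16313 and 7320 CPM in replicate 2.

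The comparison of KO with WT asks whether loss of Ahr goes with a different level of cell cycle transcripts in gut Treg cells. No member passed the test: edgeR's quasi-likelihood test called 0 of 39 at an adjusted p under 0.05, in a fit that called 0 of 14274 genes (0%). Ahrr, at a log2 fold change of -4.42 ± 0.31 (SE), was thus not called either. The absence of calls therefore does not show that levels were equal. By the same test 0 of 39 members had an unadjusted p under 0.05, where 407 genes (2.85%) did, and the lowest among members was 0.0523, for Cdt1. DESeq2 called 0 members and 48 genes (0.267%), with 0 members at an unadjusted p under 0.05, limma-voom called 0 members, and in the authors' deposited table each of the 39 members had an adjusted p of 0.889 while 66 rows (0.344%) were under 0.05. The values nevertheless lay mostly on 1 side. Fitted levels were higher in KO for 34 of 39 members, against 52.0% of all genes tested, with a median log2 fold change of 0.17 (1.12-fold) beside 0.0074 for all genes. The members lower in KO were Gins2, E2f1, Mcm7, Ccnb1 and Kif23.

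This direction depended on which libraries were set against each other. When each KO library was compared with the WT library of the same number, 32 members were higher in KO in both replicates, where 29.6% of all genes were, and 1 (Gins2) was lower in both. The median log2 ratio was 0.14 in replicate 1 and 0.17 in replicate 2. Without WT replicate 1 the fit gave a higher KO value for 13 members (median -0.06), and without KO replicate 2 for 10 members (median -0.16). The count was 36 both without WT replicate 2 (median 0.52) and without KO replicate 1 (median 0.39). A fit without 1 library sets unequal mixes of the replicate numbers against each other, and most members differed between replicates by more than between genotypes.

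**Figure D2:**
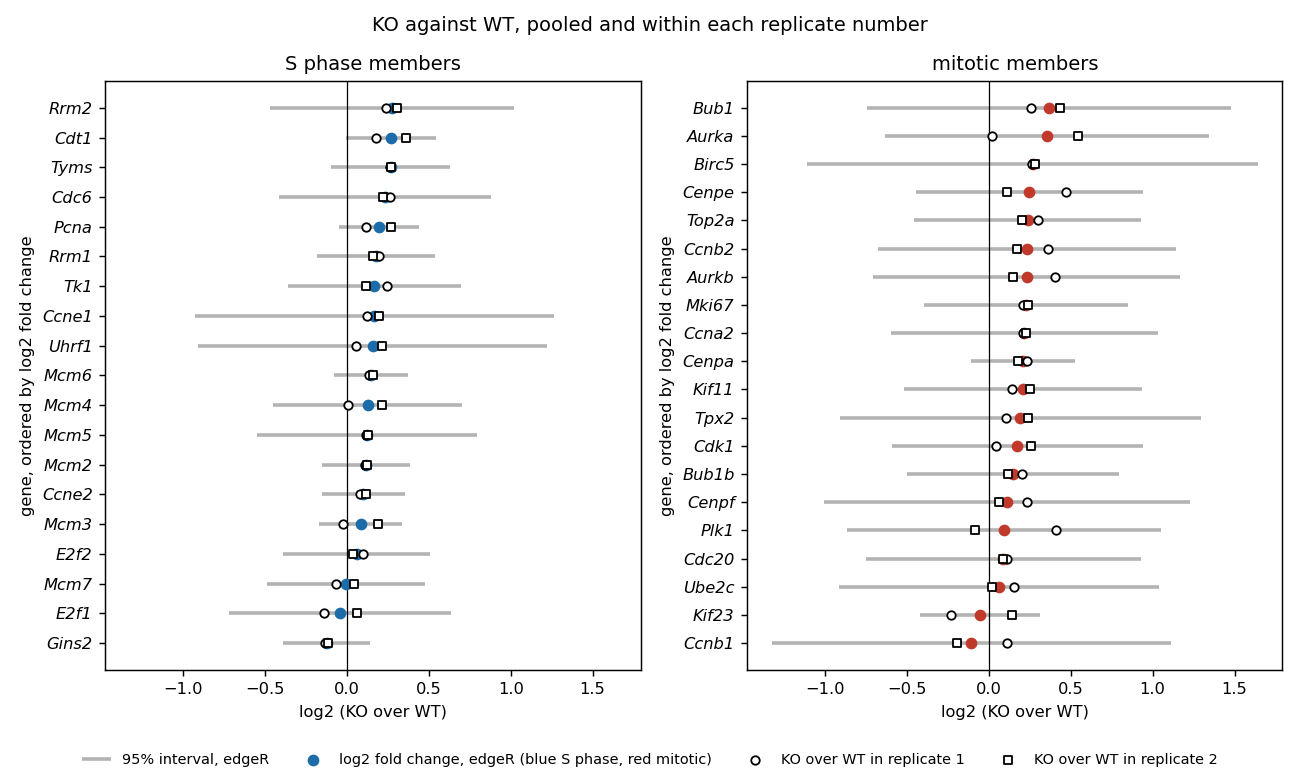
Log2 KO over WT of each member, with S phase members on the left and mitotic members on the right; filled circles are edgeR's log2 fold changes with 95% intervals as bars, open circles the ratio in replicate 1 and open squares the ratio in replicate 2. Most symbols lie right of 0 (34 of 39 fitted values) and every interval includes 0.

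Among the S phase members, the 6 subunits of the Mcm2 to Mcm7 helicase ring, which unwinds DNA at the fork, had a geometric mean of 90.2 and 107 CPM in the WT libraries and 93.2 and 118 CPM in the KO libraries. Mcm6 (mm9 chr1:130228168-130256233, minus strand) was at 255 and 271 CPM in the WT libraries and 280 and 303 CPM in the KO libraries, with a log2 fold change of 0.15 ± 0.09 (SE). It was the only subunit of the ring whose KO libraries both exceeded both WT libraries, a pattern shown by 13.5% of all genes. Mcm2 was at 82.1 and 90.2 CPM in the WT libraries and 88.5 and 98.2 CPM in the KO libraries, and Mcm3 at 93.8 and 91.4 against 92.4 and 104 CPM. Mcm4 (96.2 and 126 against 96.6 and 146 CPM) and Mcm5 (64.3 and 96.9 against 69.9 and 106 CPM) differed far more between replicates than between genotypes. Mcm7 was at 44.3 and 55.9 CPM in the WT libraries and 42.3 and 57.6 CPM in the KO libraries, with no lead of either genotype (log2 fold change -0.0046 ± 0.19). Mcm7 shares bases with Cops6 and Ap4m1 on the other strand, and no source used here says whether the counting used strand.

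Cdt1 and Cdc6 load the ring on origins, and Gins2 is a subunit of the GINS complex that activates it. Cdt1 (mm9 chr8:125091915-125097028, plus strand) had the lowest unadjusted p of the members, at 43.2 and 38.4 CPM in the WT libraries and 48.9 and 49.4 CPM in the KO libraries, with a log2 fold change of 0.27 ± 0.11 (SE), a 95% interval of -0.0037 to 0.54 and an edgeR adjusted p of 1.00. Gins2 (25.1 and 26.7 against 22.9 and 24.7 CPM) was the only member with both KO libraries below both WT libraries, a pattern shown by 13.4% of all genes, with a log2 fold change of -0.12 ± 0.11. Both genes lie wholly within the annotated span of Gm20388, Cdt1 on the same strand and Gins2 on the opposite one, so their reads cannot be assigned with certainty. Cdc6 was at 8.23 and 12.2 CPM in the WT libraries and 9.87 and 14.2 CPM in the KO libraries.

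Pcna encodes the sliding clamp that holds DNA polymerase on its template (mm9 chr2:132074898-132079050, minus strand). It was at 244 and 249 CPM in the WT libraries and 265 and 300 CPM in the KO libraries, a log2 fold change of 0.20 ± 0.10 (SE, 95% interval -0.05 to 0.44). Tyms, which makes thymidylate, was at 13.03 and 15.3 CPM in the WT libraries and 15.7 and 18.5 CPM in the KO libraries, with the same log2 ratio of 0.27 in both replicates. For Pcna and Tyms both KO libraries lay above both WT libraries, as they did for 13.5% of all genes. The 95% interval of each of these 2 log2 fold changes included 0. The other nucleotide enzymes overlapped between genotypes: Rrm1, the large subunit of ribonucleotide reductase, was at 90.0 and 110 against 103 and 123 CPM, its small subunit Rrm2 at 15.8 and 24.5 against 18.6 and 30.2 CPM, and the salvage kinase Tk1 at 12.1 and 17.02 against 14.4 and 18.5 CPM. Uhrf1, which guides maintenance methylation to newly copied DNA, was at 24.1 and 45.2 CPM in the WT libraries and 25.1 and 52.3 CPM in the KO libraries. Its replicate 2 level was 1.87 times that of replicate 1 in WT and 2.09 times in KO.

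Of the regulators that start S phase, cyclin E2 (Ccne2) was at 24.2 and 25.1 CPM in the WT libraries and 25.6 and 27.2 CPM in the KO libraries, with a log2 fold change of 0.10 ± 0.10 (SE). Ccne2 shares 5622 bases with Ints8 on the other strand. Ccne1 was at 2.90 and 5.42 CPM in the WT libraries and 3.16 and 6.22 CPM in the KO libraries. Both cyclins partner the kinase Cdk2 at the start of S phase, and the replicate gap was wide for Ccne1 and narrow for Ccne2. The transcription factors E2f1 (3.13 and 2.50 against 2.84 and 2.61 CPM) and E2f2 (22.1 and 28.8 against 23.7 and 29.6 CPM) had log2 fold changes of -0.04 ± 0.27 and 0.06 ± 0.18. In total, both KO libraries exceeded both WT libraries for 5 of 39 members (Pcna, Tyms, Mcm6, Cdt1 and Ccne2). Of all genes 13.5% did so, a similar share. All 5 were S phase members. The S phase members had a median log2 replicate gap of 0.29 in WT and 0.26 in KO, against 0.76 and 0.72 for the mitotic members. A wider replicate gap leaves less room for this pattern, so its split by class is not a measure of the genotype difference.

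Among the mitotic members, Mki67, the proliferation antigen that coats mitotic chromosomes (mm9 chr7:142881471-142908062, minus strand), was at 234 and 341 CPM in the WT libraries and 271 and 402 CPM in the KO libraries. Its log2 fold change was 0.23 ± 0.25 (SE, 95% interval -0.40 to 0.85), with ratios of 0.21 and 0.24 within the replicate numbers. Top2a, the topoisomerase that untangles sister chromatids (mm9 chr11:98854257-98885503, minus strand), was at 143 and 227 CPM in the WT libraries and 175 and 261 CPM in the KO libraries, a log2 fold change of 0.24 ± 0.28. For both genes the KO library was above the WT library of the same number, yet WT replicate 2 was above KO replicate 1, so the genotypes overlapped. That overlap held for all 20 mitotic members, and for 10427 of all 14274 tested genes.

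The kinase Cdk1 and its cyclins drive entry into mitosis. Cdk1 was at 10.5 and 15.4 CPM in the WT libraries and 10.8 and 18.5 CPM in the KO libraries, Ccna2 at 25.2 and 41.7 against 29.1 and 48.8 CPM, and Ccnb2 at 9.35 and 17.7 against 12.0 and 19.9 CPM. Ccnb1 was at 3.76 and 8.97 CPM in the WT libraries and 4.07 and 7.83 CPM in the KO libraries, and its ratio changed sign between the replicates (0.11 and -0.19). Plk1, a kinase of centrosome maturation and chromosome separation, likewise had a log2 ratio of 0.41 in replicate 1 and -0.09 in replicate 2 (2.20 and 4.26 against 2.93 and 4.01 CPM). Aurka, the spindle pole kinase, was at 6.14 and 9.20 CPM in the WT libraries and 6.22 and 13.4 CPM in the KO libraries, so its log2 fold change of 0.36 ± 0.40 came mostly from replicate 2 (ratios 0.02 and 0.54). Tpx2, which activates Aurora A on the spindle, was at 10.6 and 20.6 against 11.4 and 24.3 CPM.

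Aurkb and Birc5 belong to the chromosomal passenger complex, which corrects faulty attachments. Birc5 was at 4.58 and 11.2 CPM in the WT libraries and 5.51 and 13.6 CPM in the KO libraries, and Aurkb at 4.77 and 9.19 against 6.32 and 10.2 CPM. The checkpoint kinases Bub1 (6.11 and 11.6 against 7.30 and 15.7 CPM) and Bub1b (18.2 and 27.6 against 20.9 and 30.0 CPM) had log2 fold changes of 0.37 ± 0.44, the highest fitted value among the members, and 0.15 ± 0.26. Cdc20 and Ube2c work with the anaphase-promoting complex that ends mitosis. Cdc20 was at 7.45 and 12.6 CPM in the WT libraries and 8.05 and 13.3 CPM in the KO libraries, and Ube2c at 5.29 and 10.1 against 5.90 and 10.3 CPM.

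Of the kinetochore and spindle members, the motor Cenpe was at 10.8 and 18.4 CPM in the WT libraries and 15.0 and 19.9 CPM in the KO libraries, Cenpf at 8.45 and 18.4 against 9.94 and 19.2 CPM, and Kif11, the motor that separates spindle poles, at 36.5 and 54.8 against 40.2 and 65.3 CPM. Cenpa and Kif23 did not share the pattern of the other mitotic members, which were higher in replicate 2 in both genotypes. Cenpa, the histone variant that marks centromeres, was at 95.7 and 84.1 CPM in the WT libraries and 113 and 95.1 CPM in the KO libraries, lower in replicate 2 in both genotypes. Kif23, a motor of cytokinesis, was at 51.3 and 39.8 CPM in the WT libraries and 43.8 and 44.0 CPM in the KO libraries. It was thus lower in replicate 2 in WT and nearly level in KO. Its ratios of KO over WT had opposite signs (-0.23 and 0.14), as those of Ccnb1 and Plk1 did.

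**Figure D3:**
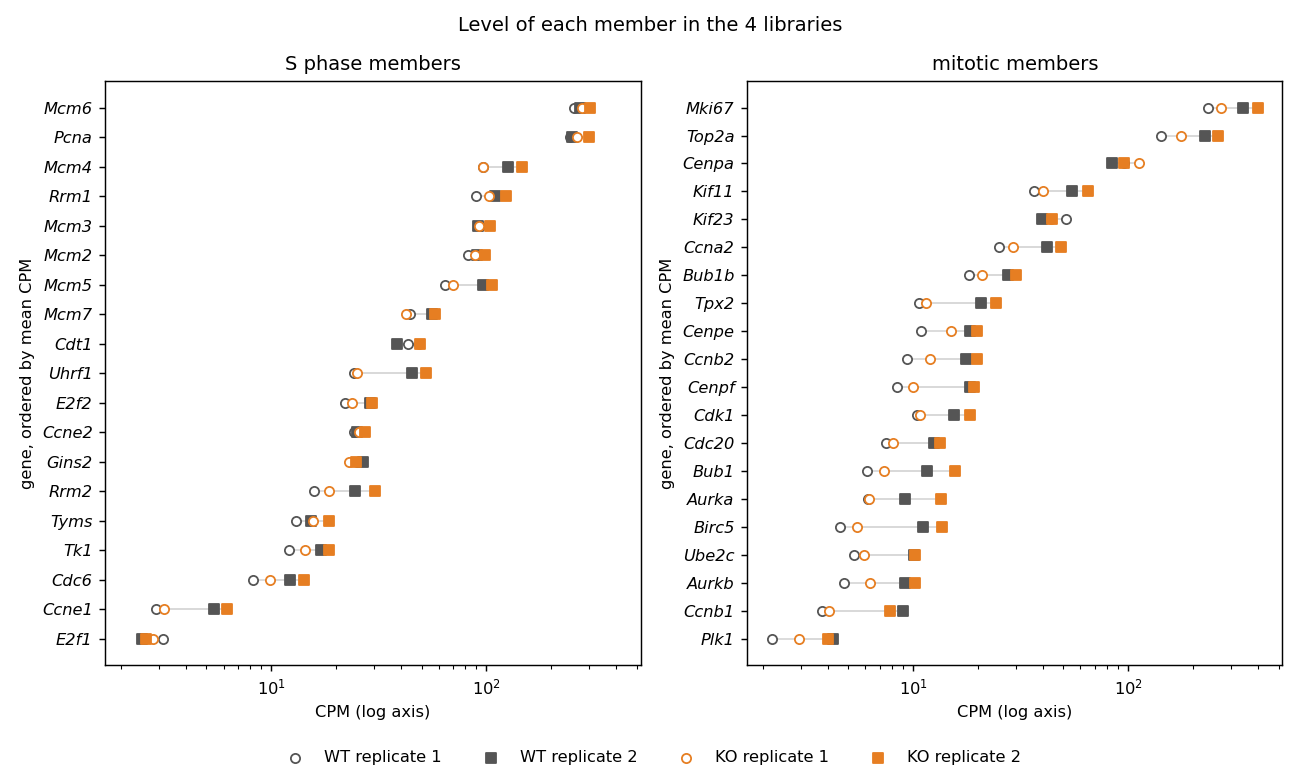
CPM of each member in the 4 libraries on a log axis, S phase members on the left and mitotic members on the right, ordered by mean CPM; open circles are replicate 1, filled squares replicate 2, grey WT and orange KO. For most mitotic members both squares lie right of both circles, as for Birc5, at 11.2 and 13.6 CPM in replicate 2 and 4.58 and 5.51 CPM in replicate 1.

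The counting error of each pair of libraries was set beside these ratios. The exact 95% interval of the ratio of counts in replicate 1 lay above 0 on the log2 scale for 19 of 39 members (15.2% of all genes), and in replicate 2 for 26 (28.3% of all genes). It lay above 0 in both replicates for 16 members (7.94% of all genes), and below 0 for Kif23 in replicate 1 and for Gins2 and Ccnb1 in replicate 2. Such intervals compare pairs of libraries and leave out the spread between samples.

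The gap between replicate numbers was wider than the gap between genotypes. In both WT and KO, 34 of 39 members were higher in replicate 2 than in replicate 1, where 35.7% of all genes were, and this held for 16 of 19 S phase and 18 of 20 mitotic members. E2f1 and Cenpa were lower in replicate 2 in both genotypes, and Mcm3, Cdt1 and Kif23 differed in sign. For 28 members the replicate gap in each genotype exceeded each gap between KO and WT, against 30.0% of all genes. This applied to 11 of 19 S phase members and 17 of 20 mitotic members. What the replicate numbers mark is not stated in the labels, and these counts carry no test.

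The replicate gap was wider for the mitotic than for the S phase members, in both genotypes. The median member was 1.69 times higher in replicate 2 in WT and 1.65 times in KO for the mitotic members, and 1.22 and 1.19 times for the S phase members, while the median log2 difference of all genes was at most 0.005. The geometric mean of the mitotic members was 13.9 and 23.0 CPM in the WT libraries and 16.0 and 25.9 CPM in the KO libraries, and that of the S phase members 31.6 and 38.7 against 33.8 and 43.3 CPM. The ratio of mitotic to S phase geometric means was 0.439 in WT replicate 1 and 0.472 in KO replicate 1, and 0.593 and 0.597 in replicate 2 of WT and KO. The libraries therefore paired by replicate number and not by genotype in this ratio. Birc5 had the widest gap, 2.42-fold in WT and 2.45-fold in KO. Of the 14 mitotic members with a CHR word 12 were higher in replicate 2 in both genotypes, the exceptions being Cenpa and Kif23, and so were all 3 without one (Birc5, Ccnb1 and Cenpe).

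**Figure D4:**
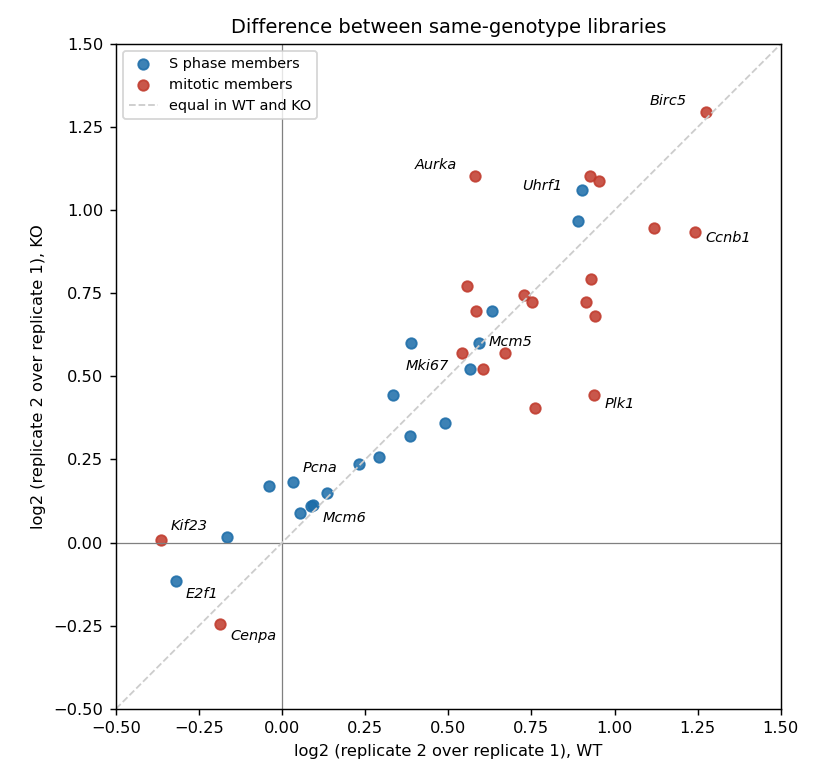
Log2 ratio of replicate 2 over replicate 1 of each member in KO (vertical axis) against that in WT (horizontal axis), with S phase members in blue, mitotic members in red and a dashed line of equality. Of the 39 points 34 lie right of and above 0, and the mitotic points lie farther out, with medians of 0.76 in WT and 0.72 in KO against 0.29 and 0.26 for the S phase members.

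Markers of other cells differed between replicates too, and their part in the gap was not tested. The summed level of 8 Treg markers was 6773 and 7620 CPM in replicate 1 of WT and KO and 6457 and 7077 CPM in replicate 2, and 0 of the 8 were higher in replicate 2 in both genotypes. Plasma cell markers summed to 131 and 137 CPM in replicate 1 and 257 and 351 CPM in replicate 2, nearly all of it Igj, with 2 of 3 measured markers higher in replicate 2 in both genotypes. Stromal markers were low but ordered in the same way, at 5.62 and 4.82 CPM in replicate 1 against 19.2 and 23.3 CPM in replicate 2 (4 of 4 higher). Macrophage markers went the other way, at 131 and 96.8 CPM in replicate 1 and 60.5 and 43.3 CPM in replicate 2 (0 of 7 higher), among them Csf1r at 36.0 and 24.7 against 16.2 and 12.6 CPM. The counts of higher markers cover tested markers only, whereas the sums also include untested ones. Epithelial markers (4 of 7 tested higher) summed to 19.03 to 28.1 CPM over the 4 libraries, B cell markers (1 of 7) to 16.4 to 21.1 and dendritic cell markers (1 of 4) to 36.4 to 46.4. Endothelial markers (3 of 3) summed to 107 to 116, erythroid markers (3 of 4) to 18.5 to 31.2, CD8 markers (1 of 2) to 5.51 to 7.49 and neutrophil markers (0 of 1) to 0.227 to 0.931. No marker in the table was at 0 in all 4 libraries, and the neutrophil marker S100a9 was at 0 in replicate 1 of both genotypes.

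Between genotypes, no difference between the S phase and the mitotic members was resolved. The median log2 fold change was 0.15 for the S phase members (16 higher, 3 lower) and 0.21 for the mitotic members (18 higher, 2 lower), a difference of -0.06. The ratio of their geometric means differed between same-genotype libraries with a pooled SD of 0.27 on the log2 scale, well above that difference. That SD includes the gap between replicate numbers that both genotypes shared. Within replicate 1 the median log2 ratio of KO over WT was 0.12 for the S phase and 0.21 for the mitotic members. Within replicate 2 it was 0.16 and 0.17, and these medians carry no test. Without WT replicate 2 the difference of medians was -0.38, and without KO replicate 1 it was -0.21. Without WT replicate 1 or KO replicate 2 it was 0.11 and 0.17.

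The rest of the pathway was followed in 196 other cell cycle genes in 10 lists, all of them tested. edgeR's quasi-likelihood test called 0 of 196, in the fit that called 0 of 14274 genes. Of the 196, 143 were higher and 53 lower in KO, with a median log2 fold change of 0.07. Over all tested genes 52.0% were higher, with a median of 0.0074, and the lists below are to be read against these values. By function, origin licensing and firing had 13 higher and 4 lower (median 0.02), replication fork and chromatin assembly 18 and 10 (0.08), nucleotide synthesis 8 and 6 (0.02), and damage checkpoint and recombination 11 and 5 (0.08). Genes of mitosis had 14 higher and 4 lower for entry regulators (0.08), 19 and 4 for the kinetochore and spindle checkpoint (0.11), 23 and 6 for the spindle and cytokinesis (0.10), and 12 and 2 for chromosome condensation (0.15). Regulators of the G1 phase (cyclins D, their kinases, E2F and Rb proteins) had 11 higher and 9 lower (0.02), and inhibitors of cyclin-dependent kinases with quiescence genes 14 and 3 (0.09).

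The genes of lowest p in these lists were named by rule, and each had an edgeR adjusted p of 1.00. Cdk6, a kinase of the cyclins D that phosphorylates Rb, was at 72.6 and 72.5 CPM in the WT libraries and 82.4 and 88.7 CPM in the KO libraries, a log2 fold change of 0.24 ± 0.10 (SE). Rb1, the retinoblastoma protein that restrains E2F factors, was at 165 and 169 CPM in the WT libraries and 149 and 143 CPM in the KO libraries, at -0.19 ± 0.08. Orc1, a subunit of the origin recognition complex, was at 11.9 and 8.95 against 13.7 and 13.3 CPM (0.38 ± 0.17). Rfc4, a subunit of the complex that loads Pcna, stood on the opposite side, at 18.7 and 24.1 CPM in the WT libraries and 15.6 and 17.4 CPM in the KO libraries (-0.37 ± 0.16). The genotypes did not overlap for these 4 genes, which were picked for their low p; of all genes, 13.5% had both KO libraries above and 13.4% both below the WT libraries. Cdkn2a, which encodes an inhibitor of Cdk4 and Cdk6, was near the detection limit at 0.186 and 0.173 against 0.424 and 0.416 CPM. H2afz, a histone variant, was at 327 and 280 against 357 and 340 CPM. The remaining genes named by the rule ranged from -0.29 for Kifc1 to 0.56 for Cenpm in log2 fold change, each within an interval that includes 0.

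The replicate gap of the pathway followed the same order as in the members. Of the 196 genes 155 were higher in replicate 2 in both genotypes, with median log2 differences of 0.31 in WT and 0.33 in KO. It was widest for the spindle and cytokinesis list (0.82 and 0.79, with 29 of 29 genes higher in both genotypes) and the kinetochore list (0.72 and 0.58, 19 of 23). Mitotic entry regulators (0.38 and 0.46, 14 of 18) and chromosome condensation genes (0.53 and 0.39, 10 of 14) came next. Replication fork genes (0.32 and 0.28, 26 of 28), nucleotide synthesis genes (0.30 and 0.29, 14 of 14), damage checkpoint genes (0.37 and 0.31, 13 of 16) and origin genes (0.14 and 0.26, 13 of 17) had narrower gaps. The G1 list (0.05 and 0.07, 10 of 20) and the inhibitors and quiescence genes (-0.09 and 0.14, 7 of 17) showed little gap.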

How the data were processed

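RNA-seq libraries of 4 samples (2 WT and 2 KO, grouped by the labels) were analysed. The authors deposited whole-number counts per gene and library without normalization, with mm9 positions, and 1 adjusted p-value for each gene. The table does not say which comparison that p-value tests, and KO against WT was assumed. TopHat2, DESeq and the build mm9 are named, per the submitters' processing notes, without roles or versions. Which tool counted reads, on which annotation and with which strand setting was not given in the sources used here. The main test was the quasi-likelihood F-test of edgeR 4.0.16 in R 4.3.3, fitted on genotype alone, with filterByExpr by group, TMM scaling and Benjamini-Hochberg adjustment over 14274 genes (4917 not tested), with a threshold of 0.05. The common dispersion was 0.0328 with 3.49 prior and 2 residual degrees of freedom. CPM are counts per 1000000 of the TMM-scaled total of tested genes, and log2 ratios between libraries used a prior count of 2. Counting intervals (exact, 95%) cover counting error only. A floor of 3 counts equals 0.0471 to 0.112 CPM. Alternatives were other scalings and filters, DESeq2 1.42.0, limma 3.58.1 (voom), a replicate block, robust estimation, each library left out, and an adjusted p under 0.1. A repeat without the 9 members that overlap another gene was chosen after seeing the data. Only the main edgeR fit was tested on simulated counts. Those counts had a lower dispersion than the data and no difference between replicate numbers.

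The members and all gene lists were chosen with earlier results of these data known, and the promoter words after the expression values were seen. Genes were named by rule: all members, the 3 genes of lowest p in each pathway list, Treg markers, the 2 highest markers of each other cell type, and Ahr and Ahrr. Values for some of these genes are not printed. Promoters came from RefSeq (GRCm38.p6) by symbol, and none of their coordinates were joined to mm9 positions.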

Additional observations from a re-analysis of the deposited data

How the results depend on the processing

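The members called (0), the members higher in KO (34, or 35 with limma-voom) and both class medians kept their values or direction under the scalings, filters, DESeq2, limma-voom and robust estimation; over these settings, the member median ran from 0.14 (library total only) to 0.17. The number of genes called was 0, but 52 with no filter and 48 with DESeq2. With members that overlap another gene left out, 27 of 30 were higher in KO. E2f1 turned from -0.04 to 0.0044 with limma-voom. The cause of these differences was not tested. With the replicate number as a block (replicate block), edgeR called 458 of all 14274 tested genes and 2 of 39 members. These were Top2a at a log2 fold change of 0.25 (adjusted p 0.0199) and Mki67 at 0.22 (adjusted p 0.0368). That fit also called 1 of the 196 pathway genes, Rfc4 (adjusted p 0.0385), and 30 of the 67 histone genes. Same-numbered libraries deviated together from their genotype mean (correlation 0.641, a single value, since with 2 libraries per genotype the deviations mirror each other). No label says what a number marks, and the blocked fit has 1 residual degree of freedom.

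Leaving out each library in turn gave 0 to 2 genes called, 10 to 36 members higher in KO and a difference of class medians of -0.38 to 0.17. These fits compare unequal mixes of replicates. The log2 fold changes that turned sign in them ranged as follows: Mki67 -0.087 to 0.52, Top2a -0.076 to 0.61, Rrm2 -0.12 to 0.63, Mcm3 -0.0033 to 0.16, Mcm4 -0.20 to 0.39, Mcm5 -0.21 to 0.45, Mcm7 -0.25 to 0.19, Cdc6 -0.059 to 0.55, Tk1 -0.051 to 0.44, Uhrf1 -0.48 to 0.69. Further ranges were Ccne1 -0.41 to 0.70, Ccna2 -0.21 to 0.63, Ccnb1 -0.67 to 0.67, Ccnb2 -0.18 to 0.78, Cdk1 -0.27 to 0.49, Cdc20 -0.33 to 0.53, Plk1 -0.29 to 0.66, Aurka -0.31 to 0.79, Aurkb -0.16 to 0.80, Bub1 -0.30 to 0.92. The last were Bub1b -0.14 to 0.49, Birc5 -0.54 to 1.07, Cenpe -0.073 to 0.69, Cenpf -0.45 to 0.79, Kif11 -0.19 to 0.53, Kif23 -0.23 to 0.14, Tpx2 -0.46 to 0.76, Ube2c -0.40 to 0.62, E2f1 -0.20 to 0.12, E2f2 -0.12 to 0.27. Pcna, Tyms, Rrm1, Mcm2, Mcm6, Cdt1, Gins2, Ccne2 and Cenpa kept their sign. Without the block, no member's difference exceeded the spread between libraries of a genotype by edgeR's test.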

Other observations

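Histone genes taken by the name prefixes Hist1h to Hist4h were not among the 39 genes. Replication-dependent histone genes, whose messages are made in S phase and lack a poly(A) tail, carry such names. The prefix alone does not show that each gene of the list is of that kind. Of the 67 histone genes, all tested, 64 were higher and 3 lower in KO, where 52.0% of all tested genes were higher. Their median log2 fold change was 0.27. Within replicate 1 the median ratio was 0.29, within replicate 2 it was 0.24, and edgeR called 0 of 67 at an adjusted p under 0.05, with 18 at an unadjusted p under 0.05 (2.85% of all genes were). In 35 of the 67 both KO libraries exceeded both WT libraries, where 13.5% of all genes did. Their median log2 difference between replicate 2 and replicate 1 was 0.18 in WT and 0.08 in KO. Reads shared between near-identical histone copies could be split unevenly by the counting, so single genes are not named. Such copies may also repeat the same signal, so counts over the 67 genes are not counts of separate observations.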
